A study of Mus musculus with 4 samples.

Results

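Integrin and laminin subunit genes were examined in 3T3-L1 preadipocytes, a clonal mouse fibroblast line that can be driven to form fat cells. Members were the genes whose mouse symbol names an integrin alpha chain (Itga), an integrin beta chain (Itgb) or a laminin alpha, beta or gamma chain (Lama, Lamb, Lamc). The array held 35 of them among 20956 named genes, namely 16 integrin alpha, 8 integrin beta and 11 laminin chains, and Itga10 and Itgae, which the rule also names, were not analysed here. The 4 groups were lamp2a knockdown cells at day 2, control cells at day 2, knockdown cells at day 0 and control cells at day 0. Day 0 was confluence, and day 2 followed an adipogenic cocktail of 0.5 mM isobutylmethylxanthine, 250 nM dexamethasone and 160 nM insulin, in medium with 10% serum that all groups shared. LAMP2A is the lysosomal receptor of chaperone-mediated autophagy. The sources used here do not give how the knockdown and its control were made. Among these groups no culture was held to day 2 without the cocktail, so that cocktail and time cannot be told apart. Each group was 1 culture on 1 one-colour array, so differences lack a replicate check and come with no p-value.

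Integrins are surface receptors, each a pair of an alpha and a beta chain, that bind matrix outside the cell and, through talin, kindlin and other adaptors, the actin cytoskeleton inside it. Laminins are secreted trimers of an alpha, a beta and a gamma chain, and with type IV collagen, nidogens and perlecan they build the basement membrane that surrounds every mature fat cell. Adipogenesis is known for a remodelling of this kind, from a fibroblast's fibronectin-rich matrix and its receptors towards laminin and laminin receptors.

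A level is given as a scaled signal, the background-subtracted intensity of the gene's brightest probe after the 75th percentile of each array was set to 1000, and levels are compared between arrays for the same probe only. Over probes printed 10 times on each array, log2 ratios had an SD between spots of 0.04 to 0.07 where probes were bright, and of 0.25 to 0.43 where they were dim. This covers the error within arrays and not that between cultures. Genes are called higher or lower from 2-fold on, and dim where their mean level did not exceed the 95th percentile of olfactory receptor genes, a scaled signal of 226. By the barcodes and scan identifiers in the file headers, the control day 0 array lay on another slide and in another scan than the other 3. It showed 67.4% of spots well above background, against 78.7% to 88.6% on the other arrays. In comparisons with that array, group, slide and scan cannot be told apart. Olfactory receptor genes, not thought to be active in fibroblasts, had a median scaled signal of 7.04 on it and of 21.4 to 23.9 on the others. In those comparisons, 81.4% of all called genes were higher in knockdown cells at day 0 (46.0% after quantile normalization and 36.5% after cyclic loess), and 71.1% were higher at day 2 than at day 0 in control cells (37.3% and 30.5%). Lamp2, the targeted gene, had 1 probe that was lower in knockdown cells by 3.51-fold at day 2 and by 4.13-fold at day 0, and another that was lower by 1.08-fold and 1.29-fold. Fibroblast markers were well above background on every array, 8 of 8.

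Of the 35 members, 26 were well above background on all arrays, 6 on some arrays and 3, Itgad, Itgax and Lama1, on none. The 32 compared members include 22 bright ones. Knockdown cells at day 2 had 2 of 32 members higher, Itga5 and Itgb7, and 3 lower, Itgb3, Itga11 and Lama2, while 2.89% of all 18561 compared genes were higher and 4.10% lower. Of the 22 bright members 2 were higher and 2 lower, against 3.02% and 3.61% of bright genes. At day 0, 4 of 32 members were higher in knockdown cells, Itgb7 and the dim genes Itgal, Itga3 and Lamc3, and 5 were lower, Itga11, Itgb3, Lamb2, Itga6 and Itga2b. Of all 19270 genes compared at day 0, 18.4% were higher and 4.20% lower, and of the 11394 bright genes 5.63% were higher and 3.10% lower. The 5 lower members were all among the 22 bright ones, and 1 bright member was higher. With induction, far more members were lower than higher at day 2. In knockdown cells 9 of 32 were lower and 2 higher, against 9.07% and 5.01% of all 19198 genes compared, and in control cells 8 of 32 were lower and 1 higher, against 8.15% and 20.0% of 18657. Of the bright members, 5 were lower and 2 higher in knockdown cells, against 9.22% and 6.17% of bright genes, and 7 were lower and 0 higher in control cells, against 7.75% and 7.60%. The median log2 ratio of the members was 0.02 for knockdown against control at day 2 and 0.02 at day 0, and for all compared genes it was -0.00 and 0.12. For day 2 against day 0 the members' median was -0.42 in knockdown and -0.29 in control cells, and that of all compared genes 0.00 and 0.19.

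**Figure D1:**
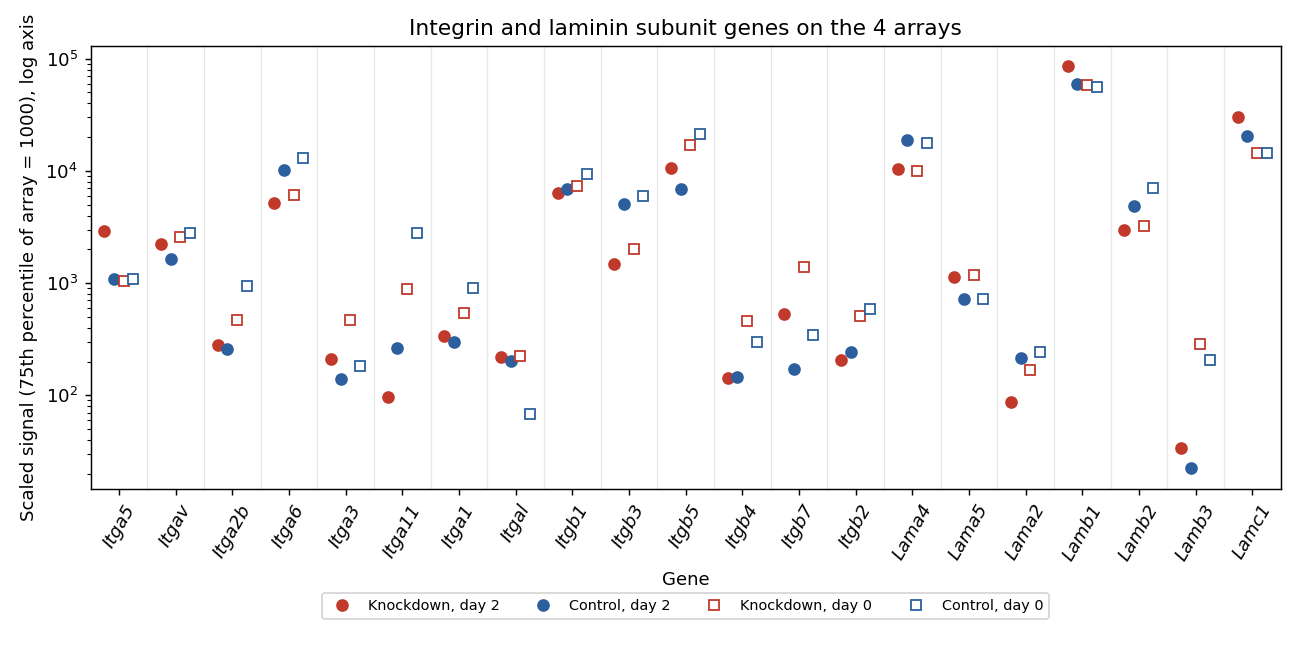
Scaled signal (log axis, the 75th percentile of each array set to 1000) of the 21 members described one by one, with 1 point per array. Red points are knockdown and blue points control cells, filled circles day 2 and open squares day 0, and Itgb3 shows the knockdown arrays below both control arrays, Itga11 the day 2 arrays below the day 0 arrays, and Itga5 the knockdown day 2 array alone above the rest.

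Among the integrin chains that bind the RGD motif of fibronectin and vitronectin, Itga5 stood higher on a single array. Itga5, the alpha chain of the classical fibronectin receptor, gave scaled signals of 2939 in knockdown and 1095 in control cells at day 2, and of 1039 in knockdown and 1082 in control cells at day 0. The knockdown day 2 array was high and the other arrays lay close together. Itga5 was 2.68-fold higher in knockdown cells at day 2, over control cells, and 2.83-fold higher at day 2 than at day 0 in knockdown cells. Its log2 ratio of day 2 to day 0 in control cells was 0.02, and that of knockdown to control cells at day 0 was -0.06. The knockdown log2 ratio of Itga5 at day 2 exceeded that at day 0 by 1.48. Such a difference between the days reached 2-fold upwards for 2 of 26 members, Itga5 and Itga2b, and downwards for 1, Itgal, against 2.90% and 16.9% of the 15465 genes well above background on all arrays. Among the 22 bright members these counts were 2 and 0, against 2.66% and 6.63% of 11389 bright genes. Under the other settings tried, the log2 ratio of knockdown to control at day 2 lay between 1.30 and 1.42. Fibronectin itself, Fn1, named here after its values were seen, gave 185074 in knockdown and 125295 in control cells at day 2, and 75955 in knockdown and 118239 in control cells at day 0. Fn1 was thus 2.44-fold higher at day 2 in knockdown cells, with a log2 ratio of 0.08 between the days in control cells. Both ligand and receptor chain were past 2-fold between the days in knockdown cells and differed little in control cells.

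The promoters of Itga5, Itgb5 and Itga11 are printed, a choice made after the values were seen, because these chains were past 2-fold between the days in knockdown cells, in control cells and in both. They are the 300 bases from 250 before to 50 after the start of the gene in RefSeq, build GRCm38.p6. Capitals mark matches, on either strand, to the GC box (GGGCGG) and to a C/EBP site (TTNCNNAA).
Itga5, chr15:103366742-103367041, minus strand: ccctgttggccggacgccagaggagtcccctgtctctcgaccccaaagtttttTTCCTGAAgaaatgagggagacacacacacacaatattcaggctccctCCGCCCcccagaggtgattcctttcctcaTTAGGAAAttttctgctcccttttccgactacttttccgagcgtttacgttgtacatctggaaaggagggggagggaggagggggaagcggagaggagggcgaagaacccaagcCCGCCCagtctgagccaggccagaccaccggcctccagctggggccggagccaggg
Itgb5, chr16:33829415-33829714, plus strand: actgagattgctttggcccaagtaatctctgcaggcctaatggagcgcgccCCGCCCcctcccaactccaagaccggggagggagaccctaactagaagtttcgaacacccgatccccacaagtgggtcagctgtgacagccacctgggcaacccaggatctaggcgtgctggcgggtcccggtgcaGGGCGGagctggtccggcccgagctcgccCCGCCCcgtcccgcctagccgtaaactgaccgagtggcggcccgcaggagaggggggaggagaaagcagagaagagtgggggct
Itga11, chr9:62677605-62677904, plus strand: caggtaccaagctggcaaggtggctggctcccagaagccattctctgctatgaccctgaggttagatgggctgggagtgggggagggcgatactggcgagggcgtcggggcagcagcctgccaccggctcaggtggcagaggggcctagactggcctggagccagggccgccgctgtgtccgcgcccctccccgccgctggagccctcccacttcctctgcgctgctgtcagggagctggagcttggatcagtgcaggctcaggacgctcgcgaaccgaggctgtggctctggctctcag
The Itga5 promoter held 2 GC boxes, whose first bases lie 149 and 6 bases before the start, and 2 C/EBP matches, at 197 and 120 bases before it. Itgb5 had 3 GC boxes, at 199, 63 and 34 bases before the start, and no C/EBP match, and the Itga11 window held neither. Of 32851 promoters in the table, 35.7% held a GC box and 40.7% a C/EBP match. Among 25 promoters of 22 members, 12 held a GC box and 8 a C/EBP match. None of the printed windows held an AP-1 site (TGANTCA, in 7.81% of all promoters), a CRE core (TGACG, in 20.8%), a TEAD site (CATTCC, in 14.7%), a glucocorticoid receptor core (ACANNNTGT, in 6.85%) or a TATA box (TATAAA, in 13.6%). A match in letters is not a bound site.

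Itgav, the alpha chain shared by the vitronectin receptors, stayed within 2-fold everywhere at its brightest probe. Itgav gave 2245 in knockdown and 1644 in control cells at day 2, and 2599 in knockdown and 2767 in control cells at day 0. The control day 2 array was the lowest, at a log2 ratio of -0.75 to control day 0, and a further probe of the gene read -1.17 there. Itga2b, the alpha chain of the platelet fibrinogen receptor, gave 278 in knockdown and 256 in control cells at day 2, and 471 in knockdown and 949.7 in control cells at day 0. The control day 0 array stood above the rest. Itga2b was 3.71-fold lower at day 2 than at day 0 in control cells, and at day 0 it was 2.02-fold lower in knockdown cells, a call lost after normexp background correction and with scaling to probes well above background on all arrays, both at a log2 ratio of -0.95, and without detrending, at -0.97. A list of 6 platelet markers that includes Itga2b summed to 919 in knockdown and 677 in control cells at day 2, and to 1227 in knockdown and 1631 in control cells at day 0, with 4 to 6 well above background. Itga2b itself made up 949.7 of the 1631 in control cells at day 0. The sum is therefore not a reading of such cells apart from Itga2b. Between the days in control cells, Pf4 was 4.21-fold lower at day 2, and Gp9 was higher by at least 2.23-fold. Gp1ba was higher by at least 1.69-fold, and Ppbp and Gp1bb were within 2-fold. The part of such cells in the Itga2b reading was not tested. The remaining RGD-binding chain, Itga8, was within 2-fold in all comparisons, with log2 ratios between -0.98 and -0.31.

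Of the beta chains that pair with Itgav, Itgb3 was lower in knockdown cells at both days and Itgb5 was lower at day 2 in control cells. Itgb3, whose product forms the vitronectin receptor with Itgav, gave 1483 in knockdown and 5046 in control cells at day 2, and 2024 in knockdown and 5956 in control cells at day 0. Both knockdown arrays lay below both control arrays. Itgb3 was lower in knockdown cells by 3.40-fold at day 2 and by 2.94-fold at day 0, and it differed by 1.36-fold between the days in knockdown cells and by 1.18-fold in control cells. A further Itgb3 probe gave 87.7 in knockdown and 231 in control cells at day 2, and 104 in knockdown and 308 in control cells at day 0, which is 2.63-fold and 2.95-fold lower in knockdown cells. Over all settings tried the log2 ratio lay between -1.82 and -1.40 at day 2 and between -1.67 and -1.49 at day 0. In bulk RNA, fewer cells with the transcript and less transcript per cell cannot be told apart.

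Itgb5, the chain of the other widespread vitronectin receptor, gave 10554 in knockdown and 6907 in control cells at day 2, and 17162 in knockdown and 21195 in control cells at day 0. Both day 2 arrays lay below both day 0 arrays, with the control day 2 array lowest. Itgb5 was 3.07-fold lower at day 2 in control cells and 1.63-fold lower in knockdown cells. The knockdown log2 ratio was 0.61 at day 2 and -0.30 at day 0, so neither day reached 2-fold. Itgb1, the beta chain common to most matrix-binding integrins, gave 6320.0 in knockdown and 6951 in control cells at day 2, and 7393 in knockdown and 9434 in control cells at day 0. No comparison of Itgb1 passed 1.36-fold at this probe, and the further probe was at most 1.77-fold apart, between the days in control cells.

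Among the remaining beta chains, Itgb4, which pairs with Itga6 in the hemidesmosomes of epithelia, gave 143 in knockdown and 146 in control cells at day 2, and 463 in knockdown and 299 in control cells at day 0. Both day 2 arrays were below both day 0 arrays, by 3.24-fold in knockdown cells and by 2.05-fold in control cells. The call in control cells was lost after normexp, at a log2 ratio of -0.79, and with the 75th percentile taken over probes well above background on all arrays, at -0.97, while cyclic loess gave -1.64. Itgb6 and Itgb8 were not well above background on 2 arrays each, so all their comparisons gave bounds. None of these minimum differences reached 2-fold, and their full size could not be read.

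The laminin-binding alpha chains differed in direction. Itga6, a laminin receptor chain of many stem cells and epithelia, gave 5157 in knockdown and 10164 in control cells at day 2, and 6146 in knockdown and 12956 in control cells at day 0. Both knockdown arrays lay below both control arrays, by 1.97-fold at day 2 and by 2.11-fold at day 0. The value at day 2 passed 2-fold after quantile normalization and after cyclic loess, at log2 ratios of -1.02 and -1.04. Between the days Itga6 differed by 1.19-fold in knockdown cells and by 1.27-fold in control cells. Itga3, a dim gene, gave 209 in knockdown and 139.5 in control cells at day 2, and 472 in knockdown and 184 in control cells at day 0. Its knockdown day 0 array was the high one, 2.57-fold above the control array, but at log2 ratios of 0.95 after quantile normalization and 0.76 after cyclic loess. In knockdown cells Itga3 was 2.26-fold lower at day 2 than at day 0. Itga7, the muscle laminin receptor chain, was within 2-fold in all comparisons, with log2 ratios between -0.75 and 0.13.

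**Figure D2:**
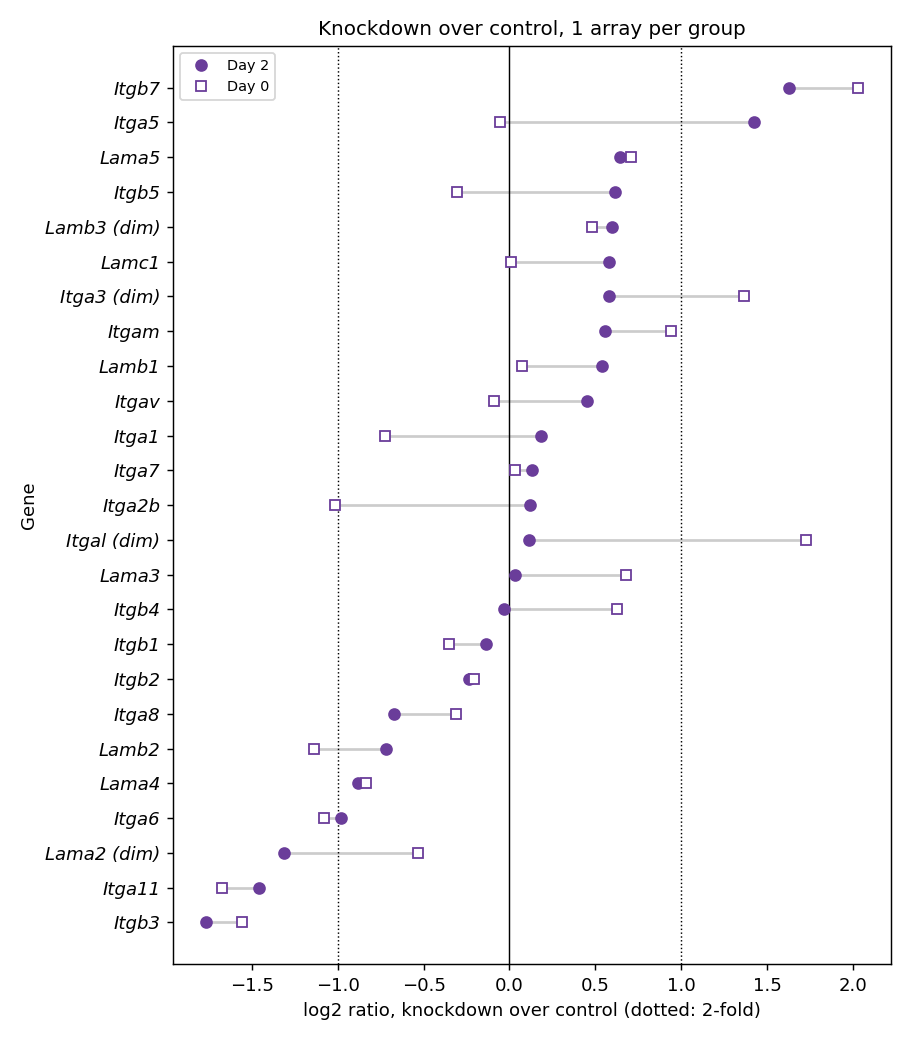
Log2 ratio of knockdown to control cells at day 2 (filled circles) and day 0 (open squares) for 25 of the 26 members well above background on all arrays, sorted by day 2, each from single arrays, with dotted lines at 2-fold. Itgb3 and Itga11 lie past 2-fold lower and Itgb7 past 2-fold higher at both days, and Itga5 lies at -0.06 at day 0 and at 1.42 at day 2.

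The collagen-binding chain Itga11 had the widest range of any integrin member measured on all arrays. Itga11, a receptor for fibrillar collagen on fibroblasts, gave 97.1 in knockdown and 267 in control cells at day 2, and 883 in knockdown and 2818 in control cells at day 0. The knockdown day 2 array was lowest and the control day 0 array highest. At day 2 Itga11 was 9.10-fold lower than at day 0 in knockdown cells and 10.6-fold lower in control cells. In knockdown cells it was also below control cells, by 2.75-fold at day 2 and by 3.19-fold at day 0. The time difference in knockdown cells was -2.51 on the log2 scale with normexp, against -3.19 here. Itga1, a receptor chain for basement membrane and fibrillar collagens, gave 337 in knockdown and 296 in control cells at day 2, and 545 in knockdown and 899 in control cells at day 0. Itga1 was 3.04-fold lower at day 2 in control cells and 1.62-fold lower in knockdown cells, but its further probe read 1.18-fold and 1.21-fold lower, so the call rests on a single probe. Itga2 was well above background on 2 arrays, so all its comparisons gave bounds. None of these minimum differences reached 2-fold, and their full size could not be read. Itga9, a receptor chain for tenascin, was well above background on all arrays but control day 0. Its measured comparisons were within 2-fold, 1.32-fold between the cells at day 2 and 1.23-fold between the days in knockdown cells. Against control day 0 it was higher by at least 1.48-fold in knockdown cells and by at least 1.58-fold at day 2 in control cells.

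**Figure D3:**
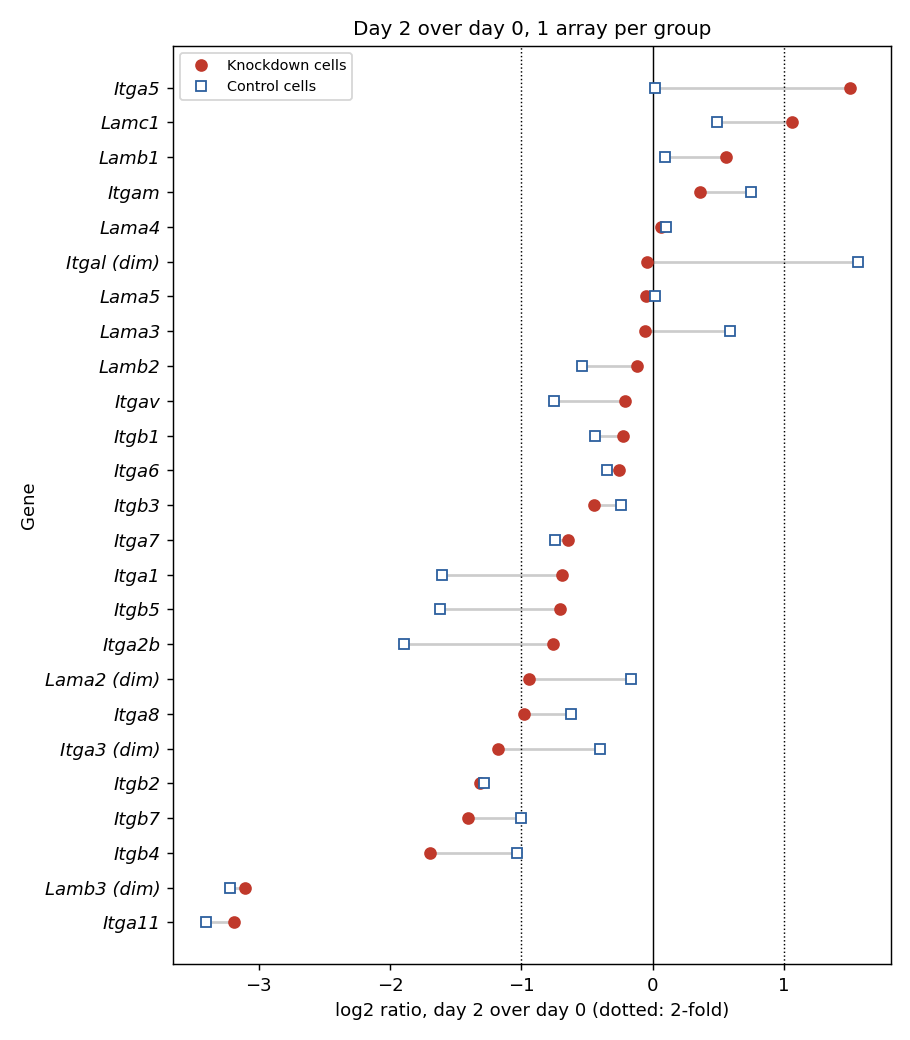
Log2 ratio of day 2 to day 0 in knockdown cells (filled circles) and control cells (open squares) for 25 of the 26 members well above background on all arrays, each from single arrays, with dotted lines at 2-fold. Itga11 and the dim gene Lamb3 lie at or below -3.10 in both kinds of cell, and most members lie left of 0.

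Integrin chains known from leukocytes were also read on these arrays. Itgb7, which pairs with Itga4 or Itgae on lymphocytes, gave 530.5 in knockdown and 172 in control cells at day 2, and 1403 in knockdown and 345 in control cells at day 0. Each knockdown array was above the control array of its day, by 3.09-fold at day 2 and by 4.07-fold at day 0. Itgb7 was 2.65-fold lower at day 2 than at day 0 in knockdown cells and 2.01-fold lower in control cells. The call in control cells was lost after normexp, at a log2 ratio of -0.75, with scaling to probes well above background on all arrays, at -0.94, and without detrending, at -0.93. Its partner Itga4, a dim gene well above background on 2 arrays, was at least 2.06-fold lower at day 2 than at day 0 in knockdown cells. The Itga4 signals there were 10.8 at day 2 and 31.5 at day 0. The other Itga4 probe was not well above background on any array. Itgb2, the beta chain common to leukocyte integrins, gave 206 in knockdown and 242 in control cells at day 2, and 511 in knockdown and 589.9 in control cells at day 0. It was lower at day 2 by 2.48-fold in knockdown cells, with a log2 ratio of -0.96 under normexp, and by 2.44-fold in control cells.

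Itgam, the alpha chain of the macrophage complement receptor, gave 34978 in knockdown and 23804 in control cells at day 2, and 27186 in knockdown and 14151 in control cells at day 0, and no comparison reached 2-fold. The 2 further probes of Itgam gave 242 and 195 in knockdown and 228 and 202 in control cells at day 2, and 208 and 199.7 in knockdown and 121 and 108 in control cells at day 0. The signals differ by probe, so how much Itgam the cells hold cannot be read from the printed one. Ratios of the further probes were also within 2-fold, with log2 ratios of knockdown to control of 0.08 and -0.05 at day 2 and of 0.78 and 0.88 at day 0. Itgal, a dim gene whose product pairs with Itgb2 on lymphocytes, gave 217 in knockdown and 201 in control cells at day 2, and 224 in knockdown and 67.9 in control cells at day 0. The control day 0 array was the low one, 3.30-fold below knockdown at day 0 and 2.95-fold below control day 2, and the further probe of Itgal went 1.19-fold the same way at day 0 and 1.68-fold the opposite way between the days. After cyclic loess both Itgal calls were lost, at log2 ratios of 0.96 and 0.78. The difference between the knockdown ratios of the days, -1.61, fell short of 2-fold after quantile normalization (-0.84), after cyclic loess (-0.84) and with the median of its probes (-0.87). Itgad and Itgax were not well above background on any array.

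Leukocyte markers taken as a list, 8 on the array, summed to 4232 in knockdown and 5202 in control cells at day 2, and to 4853 in knockdown and 4539 in control cells at day 0, with 7 or 8 of 8 well above background. The pan-leukocyte gene Ptprc gave 66.0 in knockdown and 77.2 in control cells at day 2, and 65.9 in knockdown and 27.5 in control cells at day 0. At day 0 the dim gene Ptprc was past 2-fold higher and Lyz2 past 2-fold lower in knockdown cells, and at day 2 Lyz2, again lower, was the only gene of the list past 2-fold. Between the days, where Itgb7 and Itgb2 were lower, Lyz2 was lower at day 2 by 2.57-fold in knockdown and by 3.65-fold in control cells, and Ptprc was 2.81-fold higher in control cells with no difference past 2-fold in knockdown cells. The part of other cells in the leukocyte integrin signals was not tested.

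Among the laminin alpha chains, Lama4 and the dim gene Lama2 were lower in knockdown cells, and Lama5 was higher without reaching 2-fold. Lama4, the alpha chain of mesenchymal and vessel laminins and a main one around fat cells, gave 10303 in knockdown and 18943 in control cells at day 2, and 9877 in knockdown and 17610.1 in control cells at day 0. Both knockdown arrays lay below both control arrays, by 1.84-fold at day 2 and by 1.78-fold at day 0, under the 2-fold size. Lama5, a chain of most mature basement membranes, gave 1131 in knockdown and 724 in control cells at day 2, and 1172 in knockdown and 717 in control cells at day 0. Lama5 was higher in knockdown cells by 1.56-fold at day 2 and by 1.63-fold at day 0, and its log2 ratio between the days was -0.05 in knockdown and 0.01 in control cells. Lama2, the muscle laminin chain, gave 87.3 in knockdown and 217 in control cells at day 2, and 168 in knockdown and 243 in control cells at day 0. It was lower in knockdown cells by 2.48-fold at day 2, with a log2 ratio of -0.95 under normexp. A further Lama2 probe was lower in knockdown cells by at least 8.77-fold at day 2 and by 3.60-fold at day 0. Lama3 was within 2-fold in all comparisons at its brightest probe, and Lama1 was not well above background on any array.

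Of the chains of the common laminins, Lamc1 was higher and Lamb2 lower past 2-fold in 1 comparison each. Lamb1, the beta chain of most laminins, gave 85889.6 in knockdown and 59084 in control cells at day 2, and 58408 in knockdown and 55472 in control cells at day 0. The knockdown day 2 array was highest, 1.45-fold above control and 1.47-fold above knockdown day 0. Lamc1, the gamma chain of most laminin trimers, gave 30337 in knockdown and 20286 in control cells at day 2, and 14529 in knockdown and 14465 in control cells at day 0. Both day 2 arrays were above both day 0 arrays, by 2.09-fold in knockdown cells and by 1.40-fold in control cells. The knockdown value fell short of 2-fold with normexp (0.78 on the log2 scale), quantile normalization (0.89), cyclic loess (0.87) and signals without detrending (0.84). For Lamb1, Lamc1, Itga5 and Fn1 alike the knockdown day 2 array held the highest signal, a grouping made after the values were seen. Other genes, among them Itgam, Spp1 and Sdc4, were also highest on that array.

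Lamb2, the beta chain of the synaptic and kidney basement membranes, gave 2952 in knockdown and 4862 in control cells at day 2, and 3208 in knockdown and 7044 in control cells at day 0. It was lower in knockdown cells by 1.65-fold at day 2 and by 2.20-fold at day 0. Lamb3, a chain of the epithelial laminin that anchors skin and dim on average, gave 33.7 in knockdown and 22.3 in control cells at day 2, and 289 in knockdown and 207 in control cells at day 0. Both day 2 arrays were far below both day 0 arrays, by 8.58-fold in knockdown cells and by 9.29-fold in control cells. With normexp the log2 ratios were -1.83 in knockdown and -1.69 in control cells, against -3.10 and -3.22 here. In control cells the ratio was -3.91 after quantile normalization and -4.36 after cyclic loess. Itgb4 and Lamb3, both known from epithelia, were thus each past 2-fold lower at day 2 in knockdown and in control cells. Epithelial markers summed to 782 in knockdown and 706 in control cells at day 2, and to 1004 in knockdown and 329 in control cells at day 0, with 4 to 7 of 8 well above background and Epcam on none of the arrays. At day 2 against day 0, only Krt8 of that list was past 2-fold lower in knockdown cells, while in control cells none was lower and 3, Krt19, Krt14 and Krt5, were past 2-fold higher. Of all compared genes, 9.07% were lower in knockdown cells and 20.0% higher in control cells. At day 0, 5 of 7 compared markers, Krt8, Krt19, Krt5, Krt14 and Krt18, were past 2-fold higher in knockdown cells, against 18.4% of all compared genes. Of bright genes 5.63% were higher, so among dim genes the share was above 18.4%. All of these markers but Krt5 were dim, and Krt8 and Krt19 were bounds because the control day 0 array did not detect them well above background. The part of such cells in these readings was not tested. Lamc3, a gamma chain of restricted distribution, gave scaled signals of 50.3 or less. At day 0 it was above the control array in knockdown cells by at least 2.88-fold, and in knockdown cells it was 2.68-fold lower at day 2 than at day 0.

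**Figure D4:**
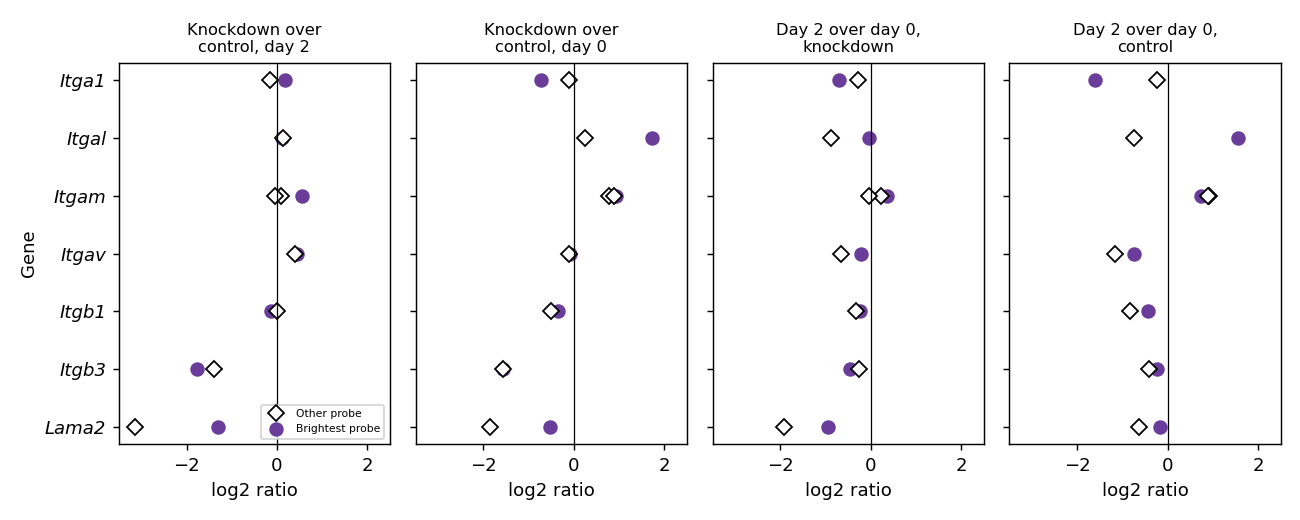
Log2 ratios of the brightest probe (filled circle) and of each further probe (open diamond) for the 7 members with at least 2 probes well above background on 3 or more arrays, in the 4 comparisons. The probes of Itgb3 lie together in each panel, those of Itga1 and Itgal differ in the control time course, and the further Lama2 probe lies lower than its brightest probe in each panel, as a bound at day 2 and in the knockdown time course.

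Genes that work with these subunits were read from 4 lists. Of all compared genes, 2.89% were higher and 4.10% lower in knockdown cells at day 2, and 18.4% higher and 4.20% lower at day 0. Between the days 5.01% were higher and 9.07% lower in knockdown cells, and 20.0% higher and 8.15% lower in control cells. Of 27 compared integrin activators and adhesion adaptors, 2 were higher and 2 lower in knockdown cells at day 2, set against control cells, and 3 were higher and 1 lower at day 0. The 3 higher ones at day 0 are 11.1% of the list, against the 18.4% of all genes. Lims2, which links integrin-linked kinase to the cytoskeleton, gave 139.9 in knockdown and 1128 in control cells at day 2, and 117 in knockdown and 1704 in control cells at day 0. It was lower in knockdown cells by 8.06-fold at day 2 and by 14.6-fold at day 0. Tns3, a tensin, was lower in knockdown cells by 2.98-fold at day 2, at 9399 against 27974. The talin gene Tln2 was 2.64-fold and the parvin gene Parvb 2.21-fold higher in knockdown cells at day 2. With induction in knockdown cells 1 adaptor was higher and 2 lower, and in control cells 2 were higher and 3 lower, Tln1 by 2.16-fold.

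Other basement membrane components had 0 of 16 members higher and 4 lower in knockdown cells at day 2, set against control cells, and 2 of 18 higher and 2 lower at day 0. The 4 lower ones at day 2 are 25.0% of the list, against 4.10% of all genes. Nid2, a nidogen that joins laminin to type IV collagen, gave 1337 in knockdown and 9239 in control cells at day 2, and 988 in knockdown and 8302 in control cells at day 0. It was lower in knockdown cells by 6.91-fold at day 2 and by 8.40-fold at day 0. Fbln1, which binds laminin and fibronectin, was lower in knockdown cells by 5.21-fold at day 2 and by 5.66-fold at day 0, and Col18a1 was 3.53-fold lower at day 2. Between the days, 2 of 18 were higher and 2 lower in knockdown cells, and 7 of 16 were higher and 2 lower in control cells, where the 7 are 43.8% of the list against 20.0% of all genes. The 7 include dim genes and rest on the control day 0 array. Of all bright genes 7.60% were higher. That share leaves dim genes out, so it is not the match of the 43.8%, which counts them. Col18a1 gave 6146 at day 2 and 8064 at day 0 in knockdown cells, but 21678 at day 2 and 6604 at day 0 in control cells.

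Other laminin receptors and their linkers had 3 of 17 members higher and 1 lower in knockdown cells at day 2, set against control cells, and 3 higher and 2 lower at day 0. The 3 higher ones are 17.6% of the list, against 2.89% of all genes at day 2 and 18.4% at day 0. At day 2 they were Sdc2, Sdc4 and the dim gene Col17a1, with Sdc4 and Col17a1 each only at 2.02-fold. The syndecan gene Sdc2, a heparan sulfate receptor for matrix, gave 54913 in knockdown and 13367 in control cells at day 2, and 88877 in knockdown and 19874 in control cells at day 0. Sdc2 was higher in knockdown cells by 4.11-fold at day 2 and by 4.47-fold at day 0. Sgcb, a sarcoglycan of the dystroglycan complex, was lower in knockdown cells by 33.4-fold at day 2, at 50.9 against 1703. At day 0 Sgcb was already lower by 59.6-fold, at 36.3 against 2164. With induction 2 of 17 were higher and 3 lower in knockdown cells, and 3 were higher and 4 lower in control cells. Sdc4, the syndecan of focal adhesions, was 3.69-fold higher at day 2 in knockdown cells and 2.35-fold higher in control cells.

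Of 25 compared integrin ligands, 3 were higher and 5 lower in knockdown cells at day 2, set against control cells, and 6 were higher and 2 lower at day 0. The higher ones are 12.0% of the list at day 2 and 24.0% at day 0, against 2.89% and 18.4% of all genes. The lower ones are 20% at day 2 and 8% at day 0, against 4.10% and 4.20% of all genes. Spp1, which encodes the vitronectin-receptor ligand osteopontin, gave 38649 in knockdown and 3536 in control cells at day 2, and 23295 in knockdown and 5855 in control cells at day 0. It was higher in knockdown cells by 10.9-fold at day 2 and by 3.98-fold at day 0. Tgfbi, another RGD-bearing matrix protein, was lower in knockdown cells by 65.2-fold at day 2, at 101 against 6568. At day 0 Tgfbi was already lower by 59.3-fold, at 247 against 14654. Postn, a matricellular ligand, was lower in knockdown cells by 7.09-fold at day 2, at 14115 against 100120.0, with a log2 ratio of -0.30 at day 0. Between the days, 5 ligands were higher and 8 lower in knockdown cells, and 4 were higher and 6 lower in control cells. In knockdown cells these are 20% and 32% of the list, against 5.01% and 9.07% of all genes. In control cells they are 16% and 24%, against 20.0% and 8.15%. Thbs1, an adhesive glycoprotein, was lower at day 2 by 13.6-fold in knockdown cells and by 7.12-fold in control cells. The lists had median log2 ratios between -0.23 and 0.10 in the knockdown comparisons and between -0.36 and 0.19 in the time comparisons.

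**Figure D5:**
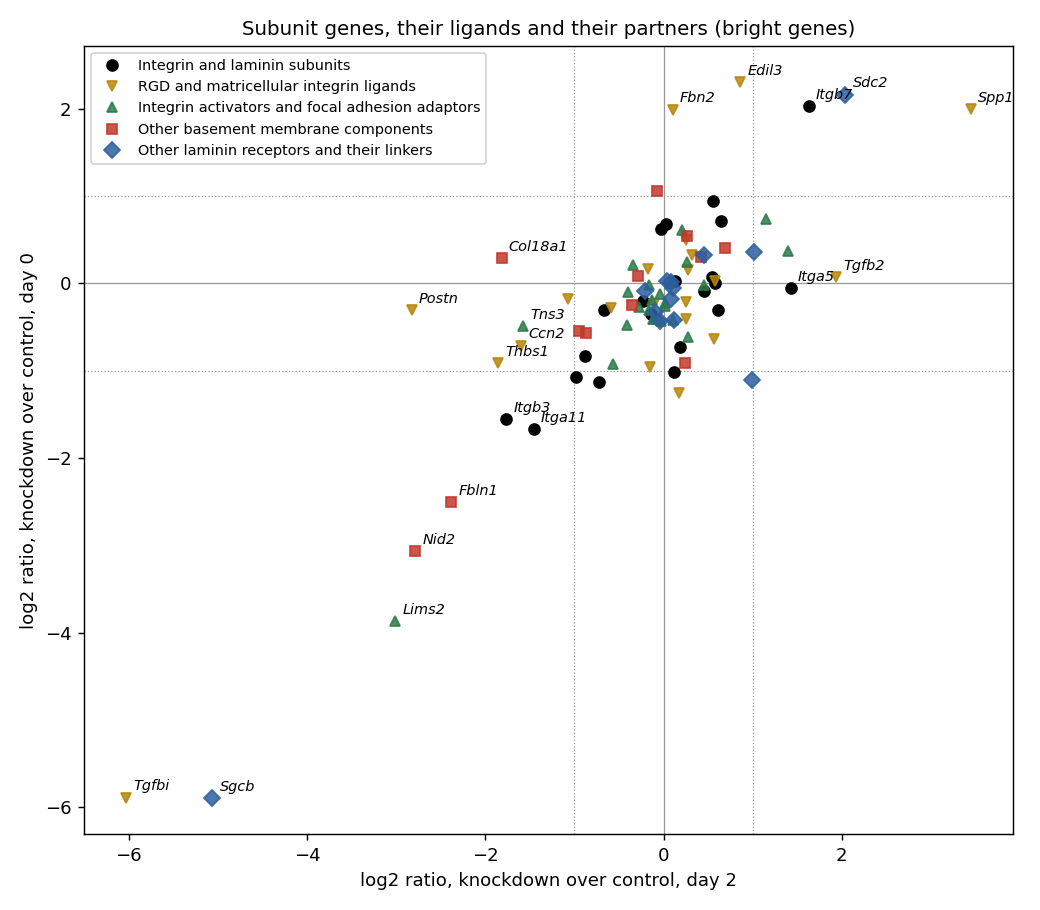
Log2 ratio of knockdown to control cells at day 2 (horizontal) and day 0 (vertical) for 21 of the 22 bright subunit genes (black circles) and bright genes of 4 lists of ligands and partners, with 1 point per gene and dotted lines at 2-fold. Itgb3 and Itga11 lie in the lower left with Nid2, Fbln1 and Lims2, while Itgb7 lies in the upper right with Sdc2 and Spp1.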

How the data were processed

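Total RNA of 4 cultures was read on Agilent mouse arrays of design 028005 with Cy3. Per the file headers, the authors used Agilent Feature Extraction 10.7.3.1, which subtracted a spatial background and detrended all arrays except knockdown day 0. The deposited intensity is linear and had no normalization across arrays. Control spots and spots marked non-uniform or as population outliers were left out, log2 signals were centred on the 75th percentile of each array, and repeat spots were averaged. Probes were named through RefSeq accessions in a GRCm38.p6 gene table (27656 of 55681 matched), and the brightest probe stands for a gene. Where 1 array of a pair was not well above background, its own level or the lowest detected level there, whichever was higher, gave a bound. Bounds that pointed the other way were set to 0. With 1 array per group nothing was tested, and the number of arrays limits the precision. The calling rule was checked on simulated data. Members named with every array are those well above background on all arrays and past 2-fold anywhere, plus 10 chains of the main trimers and dimers. The values of 1 member and of 1 leukocyte marker are not reported here, though both are in the counts and sums. Fn1 aside, of the partner lists, at most 3 genes per direction are named. Members, lists and rules were chosen with earlier results of these data known. Python 3.11.15, numpy 2.4.6, pandas 2.3.3, R 4.3.3 and limma 3.58.1 were used. Alternatives were normexp (offset 50), quantile and cyclic loess normalization, scaling to detected probes, other filters, the median of a gene's probes, outlier spots kept, and sizes of 1.5-fold and 3-fold. Chosen after seeing the data were the promoters and motifs, signals without detrending, bright genes only, and each further probe.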

Additional observations from a re-analysis of the deposited data

Results flagged for a closer look

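The knockdown difference of Itga5 was at a log2 ratio of 1.42 at day 2 and -0.06 at day 0, a difference of 1.48. The day 0 ratio is about the spot SD of bright probes there, 0.05, and lay between -0.13 and 0.01 over the settings tried. For Itga2b the ratios were 0.12 at day 2 and -1.01 at day 0, a difference of 1.13. Itgal, a dim gene, had a log2 ratio of day 2 to day 0 of -0.04 in knockdown and 1.56 in control cells, a difference of -1.61, which fell short of 2-fold after quantile normalization, after cyclic loess and with the median of its probes. None of these differences was tested, because each group had 1 array, and all of them use the control day 0 array from the other slide and scan.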

How the results depend on the processing

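No paired analysis was possible because each group had 1 array. For the same reason no array could be left out, and counts that avoid the control day 0 array are those of knockdown against control at day 2 and of day 2 against day 0 in knockdown cells. Quantile normalization and cyclic loess shifted the median log2 ratio of all compared genes by -0.12 each at day 0 and by -0.19 each in the control time course. Knockdown against control at day 0 had 4 members higher, against 1 after cyclic loess, 9 without a filter on dim probes, 1 among bright genes, 10 at 1.5-fold and 2 at 3-fold, and 5 lower, against 1 at 3-fold. At day 2 the 2 higher members became 5 at 1.5-fold and 1 at 3-fold, and the 3 lower ones 8 and 1. In knockdown cells between the days, the 2 higher members became 1 with normexp, with quantile normalization, with cyclic loess and without detrending, and 0 at 3-fold, and the 9 lower ones became 5 among bright genes, 15 at 1.5-fold and 3 at 3-fold. In control cells the single higher member became 0 after quantile normalization, after cyclic loess, with the median of all probes, among bright genes and at 3-fold, 7 without a filter and 5 at 1.5-fold, and the 8 lower ones became 5 at 3-fold. Over all settings the members' median log2 ratio lay between 0.01 and 0.13 at day 2, -0.15 and 0.11 at day 0, -0.55 and -0.27 between the days in knockdown cells, and -0.58 and -0.16 in control cells. Of 1014 values of named members under other settings, 410 repeat the reported value because the setting touches nothing in them. Of the other 604, 560 kept their side of 2-fold, 27 lost a call, 16 gained one and 1 reversed, the further probe of Itgal, at -0.75 between the days in control cells. The cause was not tested. Signal over background limits dim genes most, and 13 of the 35 members were dim.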
